A study of Mus musculus with 9 samples.

Results

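The genes described here mark the cells that wrap and surround blood vessels in the brain: pericytes, smooth muscle cells and fibroblasts. They were the rows of the deposited expression files whose symbol was Col1a1, Col1a2, Col3a1, Dcn, Lum, Pdgfrb, Rgs5, Acta2, Tagln or Vtn, and all 10 were found among the 24411 genes listed for each mouse. All 10 passed the filter on low values that left 14867 genes to be tested. Groups of 3 C57BL/6J wild type males were compared. CUG300 mice treated with CWG-cPIP received AAV9 whose Egfp transcript carried 300 CTG repeats in its 3′-UTR, mixed with CWG-cPIP, a cyclic pyrrole–imidazole polyamide that binds CAG and CTG repeat DNA. Vehicle-treated CUG300 mice received the same virus with vehicle, and CUG10 mice received AAV9 with 10 CTG repeats and vehicle. Every mouse therefore carried an Egfp virus, injected into CA1 on both sides at 9 weeks of age, and no mouse without virus was part of these data. Hippocampal total RNA was taken on day 10, and the labels give an age of 10 weeks. The promoter of the virus and the cells that took it up are not given in the sources used here.

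Values are regularized logarithms (rlog) on the log2 scale, so a difference of 1 is a doubling, shrunken toward each gene's mean and therefore understated for weakly expressed genes. The number of reads is not given with these values, and the depth behind them is unknown. Medians over the tested genes lay between 8.43 and 8.54 per mouse. The mean of 10 hippocampal neuron genes lay between 9.0 and 9.73, and none of the marker genes named below stood at 0. The tissue was not alike in all mice: the mean of 12 choroid plexus genes lay between 6.04 and 6.19 in CUG300 mice treated with CWG-cPIP, between 7.83 and 8.95 in vehicle-treated CUG300 mice, and at 5.91, 7.35 and 8.66 in the CUG10 mice. The mean of 9 diencephalon neuron genes was 7.90, 7.76 and 7.64 in CUG300 mice treated with CWG-cPIP, above all vehicle-treated CUG300 mice (7.10, 7.53 and 6.55) and all CUG10 mice (6.86, 6.78 and 6.55). The CUG10 mouse at 5.91 for choroid plexus was replicate 1, which also stands apart for several of the genes below.

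As background, pericytes sit in the basement membrane of capillaries and depend on signals through the receptor encoded by Pdgfrb. Smooth muscle cells ring arteries and arterioles and contract through actin and its partners, which include the products of Acta2 and Tagln. Fibroblasts lie in the meninges and around larger vessels, and build fibrils from collagens I and III, whose assembly is shaped by the small leucine-rich proteoglycans decorin and lumican.

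The promoter table of RefSeq (GRCm38.p6) holds 5 of the 10 genes: Col1a2, Col3a1, Acta2, Rgs5 and Vtn. A stretch is shown for Acta2, the actin of contractile smooth muscle, and for Col1a2, a chain of collagen I, because each moved across mice together with other genes of its kind. The CArG box, the site of serum response factor in smooth muscle genes, is a run of A and T between CC and GG. Its form is the same on both strands, and the strict form was in none of the 5 windows and in 1.63% of all 32851 windows. When 1 base of the core was allowed to be G or C, a form added after the strict search, 9.98% of all windows had a match, Acta2 had 2, in capitals below, and Col1a2 had 1, left in lower case. GGGCGG, on either strand, was in 35.7% of all windows and occurred 2 times in Col1a2, also in capitals. The 2 motifs do not overlap in these stretches. TATAAA, on either strand and likewise added later, was in 13.6% of all windows and in those of Col3a1 and Vtn. The stretches, 5′ to 3′, are the 100 bases before an annotated start of Acta2, on chr19:34255374-34255473 (minus strand), and the first 100 bases of the Col1a2 window, which opens 250 bases before the start, on chr6:4505368-4505467 (plus strand).
Acta2: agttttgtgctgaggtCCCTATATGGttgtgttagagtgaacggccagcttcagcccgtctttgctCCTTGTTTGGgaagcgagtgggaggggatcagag
Col1a2: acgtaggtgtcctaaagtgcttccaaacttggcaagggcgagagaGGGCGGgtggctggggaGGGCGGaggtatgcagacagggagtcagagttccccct

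Whether the expanded repeat was accompanied by a change in these genes was addressed first by comparing vehicle-treated CUG300 mice with CUG10 mice. Decorin (Dcn) and lumican (Lum), which coat collagen fibrils, were higher in vehicle-treated CUG300 mice, by 3.24-fold and 2.43-fold on the rlog scale, and vitronectin (Vtn), a matrix protein made by brain pericytes, followed without passing the test. The 3 collagen genes had higher means whose intervals included 0, and the pericyte and smooth muscle genes Pdgfrb, Rgs5, Acta2 and Tagln did not pass the test either. In bulk tissue, a difference in the number of cells of a type cannot be told apart from a difference in RNA per cell. Calls were made with limma at an adjusted p under 0.05 over all 14867 genes.

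Dcn stood at 9.50, 10.10 and 10.12 in vehicle-treated CUG300 mice, against 9.04, 7.91 and 7.68 in CUG10 mice. The groups did not overlap, although CUG10 replicate 1 came within reach of the lowest CUG300 mouse. The means were 9.90 ± 0.35 and 8.21 ± 0.73 (SD, n = 3 each), and the log2 difference was 1.70 (SE 0.39, 95% interval 0.80 to 2.59, limma adjusted p = 0.0328). Lum stood at 7.84, 8.05 and 7.89 in vehicle-treated CUG300 mice, against 7.12, 6.33 and 6.48 in CUG10 mice. The 3 CUG300 mice were close together and all above the CUG10 mice, with means of 7.92 ± 0.11 and 6.64 ± 0.42 (SD, n = 3 each). The log2 difference of Lum was 1.28 (SE 0.27, 95% interval 0.66 to 1.90, limma adjusted p = 0.0273). The 2 genes are neighbours: Dcn lies on chr10:97479500-97518163 and Lum on chr10:97565501-97572703 (GRCm38.p6), with 47337 bases and no other annotated gene between them.

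Vtn stood at 10.30, 10.24 and 10.68 in vehicle-treated CUG300 mice, against 10.16, 9.57 and 9.38 in CUG10 mice. These groups did not overlap either, but only 0.08 separated the nearest mice on the deposited scale. The log2 difference was 0.70 (SE 0.21, 95% interval 0.23 to 1.17) and the limma adjusted p was 0.0602.

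Thus 2 of the 10 genes were called higher and none lower, where 7.37% of all tested genes were called higher and 3.34% lower. Of the 10 genes, 3 had groups without overlap, all higher in vehicle-treated CUG300 mice, where 18.2% of all tested genes were higher and 16.7% lower without overlap. An unadjusted p under 0.05 was found for 3 of the 10, against 30.5% of all tested genes. The median log2 difference was 0.57 over the 10 genes and -0.01 over all tested genes. The calls of Dcn and Lum were lost (0 of the 10 called) when CUG10 replicate 1, 2 or 3, vehicle-treated CUG300 replicate 3, or CWG-cPIP replicate 1 was left out, with smallest limma adjusted p-values of 0.0841, 0.0879, 0.112, 0.0988 and 0.0512 in that order. Over these fits and those without the other mice the log2 difference lay between 1.43 and 2.11 for Dcn and between 1.13 and 1.52 for Lum. Over all tested genes the number called was 1592, and it was 0, 2, 0, 0 and 265 without the same mice and 2490 without vehicle-treated CUG300 replicate 2.

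**Figure D1:**
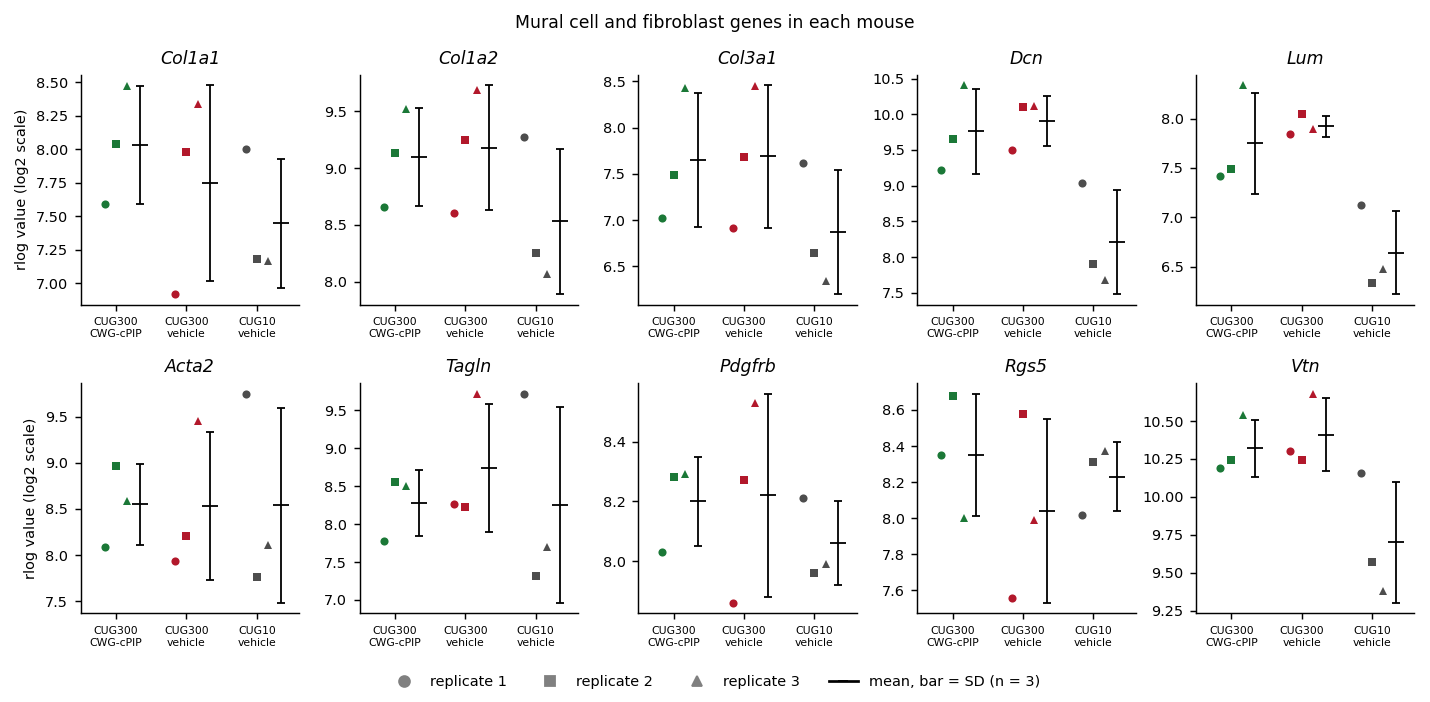
rlog value (log2 scale, vertical axis, scaled per gene) of the 10 genes in each mouse, by group on the horizontal axis, with the mean and SD of 3 mice beside the points. Dcn, Lum and Vtn have both CUG300 groups above every CUG10 mouse, while CUG10 replicate 1 is the highest of all mice for Acta2 (9.75) and Tagln (9.72 as drawn, level with CUG300 vehicle replicate 3).

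The collagens varied from mouse to mouse within groups. Col1a1, the α1 chain of collagen I, stood at 6.92, 7.98 and 8.34 in vehicle-treated CUG300 mice, against 8.0, 7.18 and 7.17 in CUG10 mice. The lowest of all 9 mice for Col1a1 was thus a CUG300 mouse, and the difference was 0.29 (95% interval -0.58 to 1.17, limma adjusted p = 0.643). Col1a2, the α2 chain, stood at 8.60, 9.25 and 9.69 in vehicle-treated CUG300 mice, against 9.27, 8.25 and 8.07 in CUG10 mice. Here the groups overlapped through CUG10 replicate 1 and CUG300 replicate 1, and the difference was 0.65 (95% interval -0.20 to 1.495, limma adjusted p = 0.269). Col3a1, the chain of collagen III, stood at 6.92, 7.68 and 8.45 in vehicle-treated CUG300 mice, against 7.62, 6.65 and 6.34 in CUG10 mice. It overlapped in the same way, with a difference of 0.82 (95% interval -0.28 to 1.92, limma adjusted p = 0.285).

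The smooth muscle genes split by mouse and not by group. Acta2, which encodes smooth muscle α-actin, stood at 7.94, 8.21 and 9.45 in vehicle-treated CUG300 mice, against 9.75, 7.76 and 8.11 in CUG10 mice. Each group held 1 mouse far above the other two, and the means of 8.53 ± 0.80 and 8.54 ± 1.06 (SD, n = 3 each) differed by -0.004 (95% interval -1.24 to 1.23, limma adjusted p = 0.998). Tagln, which encodes the actin-binding protein transgelin, stood at 8.27, 8.23 and 9.72 in vehicle-treated CUG300 mice, against 9.72, 7.32 and 7.70 in CUG10 mice. The same 2 mice were high, and the difference was 0.49 (95% interval -0.91 to 1.90, limma adjusted p = 0.627). Acta2 is similar in coding sequence to other actin genes, and Tagln overlaps Pcsk7 on chromosome 9, so some reads of these genes may have been shared. The libraries were made with a directional kit, but the sources used here do not say if strand was considered in quantification.

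The pericyte genes varied least. Pdgfrb, the receptor for platelet-derived growth factor B on pericytes, stood at 7.86, 8.27 and 8.53 in vehicle-treated CUG300 mice, against 8.21, 7.96 and 7.99 in CUG10 mice. Its whole range over the 9 mice was 0.67, the smallest of the 10 genes, and the difference was 0.16 (95% interval -0.23 to 0.56, limma adjusted p = 0.557). Rgs5, a regulator of G-protein signalling found in pericytes and smooth muscle, stood at 7.56, 8.58 and 7.99 in vehicle-treated CUG300 mice, against 8.02, 8.31 and 8.37 in CUG10 mice. The groups overlapped, and the difference was -0.19 (95% interval -0.78 to 0.40, limma adjusted p = 0.655). The intervals for Pdgfrb and Rgs5 leave room for a fold between 0.853 and 1.47 and between 0.582 and 1.32 on the rlog scale.

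**Figure D2:**
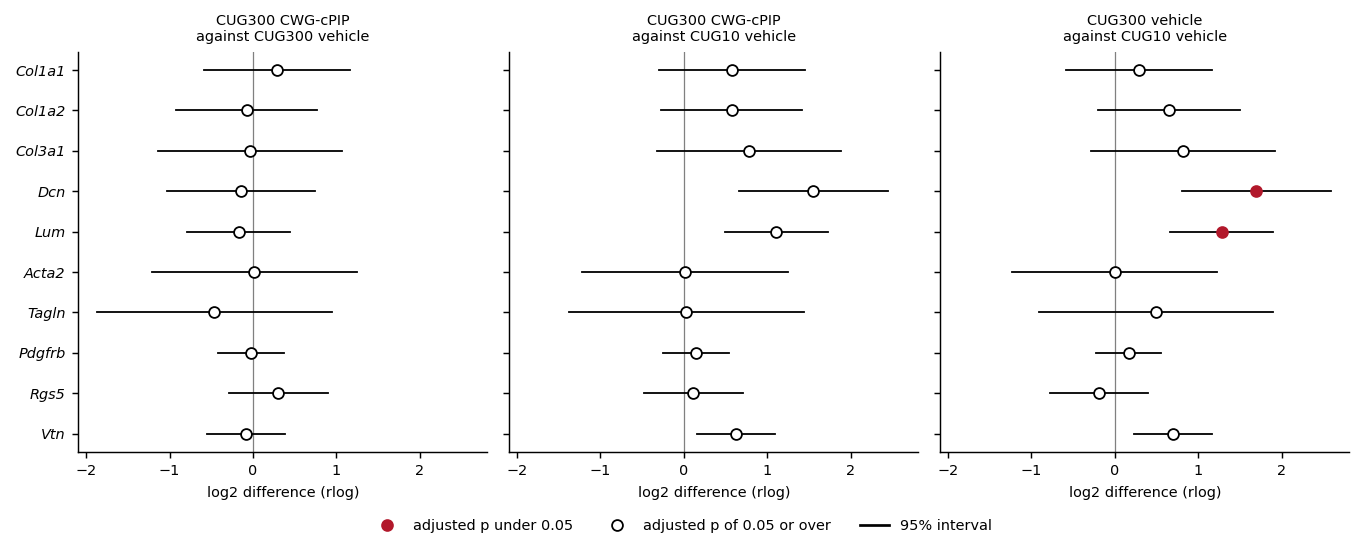
Log2 difference on the rlog scale (horizontal axis) of each gene in 3 comparisons, with its 95% interval from limma, filled where the adjusted p was under 0.05. Dcn and Lum are filled in vehicle-treated CUG300 against CUG10 mice, and no gene is filled in the comparisons with CWG-cPIP.

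The effect of CWG-cPIP was addressed by comparing treated with vehicle-treated CUG300 mice. None of the 10 genes passed the test, and the means of treated mice lay within 0.46 of those of vehicle-treated mice on the log2 scale. Dcn stood at 9.22, 9.65 and 10.41 in CUG300 mice treated with CWG-cPIP, against 9.50, 10.10 and 10.12 in vehicle-treated CUG300 mice. The treated mice spanned the vehicle-treated ones, and the difference was -0.14 (SE 0.39, 95% interval -1.04 to 0.75). Lum stood at 7.42, 7.49 and 8.34 in CUG300 mice treated with CWG-cPIP, against 7.84, 8.05 and 7.89 in vehicle-treated CUG300 mice. Of the treated mice, 2 lay below all vehicle-treated mice and 1 above them, with a difference of -0.17 (SE 0.27, 95% interval -0.79 to 0.44). Vtn stood at 10.19, 10.24 and 10.54 in CUG300 mice treated with CWG-cPIP, against 10.30, 10.24 and 10.68 in vehicle-treated CUG300 mice, a difference of -0.08 (95% interval -0.55 to 0.39).

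The remaining genes also overlapped between treated and vehicle-treated CUG300 mice. Col1a1 stood at 7.59, 8.04 and 8.47, Col1a2 at 8.66, 9.13 and 9.52, and Col3a1 at 7.02, 7.49 and 8.43 in CUG300 mice treated with CWG-cPIP. Each collagen thus had the same lowest and the same highest mouse within this group. Acta2 stood at 8.09, 8.97 and 8.59 and Tagln at 7.78, 8.55 and 8.50 in CUG300 mice treated with CWG-cPIP. No treated mouse reached the vehicle-treated mouse with the highest values of these 2 genes. Pdgfrb stood at 8.03, 8.28 and 8.29 and Rgs5 at 8.35, 8.68 and 8.0 in CUG300 mice treated with CWG-cPIP. These comparisons of treated mice hold the differences in choroid plexus and diencephalon genes given above, and the part of tissue makeup in them was not tested. The largest positive difference from vehicle among the 10 genes was 0.31 for Rgs5 (95% interval -0.29 to 0.90) and the largest negative one was -0.46 for Tagln (95% interval -1.87 to 0.94).

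In this comparison 0 of the 10 genes were called by limma, as were 0.0% of all tested genes in each direction, and the smallest adjusted p among the 10 was 0.567, for Rgs5. An unadjusted p under 0.05 was found for 0 of the 10 and for 8.82% of all tested genes. No gene of the 10 had groups without overlap, where 4.97% of all tested genes were higher and 3.5% lower without overlap. The median log2 difference was -0.06 over the 10 genes and 0.0 over all tested genes. These intervals do not show that treated and vehicle-treated mice were alike: for Dcn a fold of 0.488 or of 1.68 lies at the ends of the interval.

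Set against CUG10 mice, CUG300 mice treated with CWG-cPIP again had higher Dcn, Lum and Vtn without overlap, but none of the 10 genes passed the test. This comparison shares its CUG10 mice with the first. Dcn stood at 9.22, 9.65 and 10.41 in treated CUG300 mice, against 9.04, 7.91 and 7.68 in CUG10 mice, a difference of 1.55 (SE 0.39, 95% interval 0.66 to 2.44, limma adjusted p = 0.174). Lum stood at 7.42, 7.49 and 8.34 in treated CUG300 mice, against 7.12, 6.33 and 6.48 in CUG10 mice, a difference of 1.11 (SE 0.27, 95% interval 0.49 to 1.72, limma adjusted p = 0.164). In both, every treated mouse was above every CUG10 mouse, and the nearest CUG10 mouse was replicate 1. Vtn differed by 0.62 (SE 0.21, 95% interval 0.15 to 1.09, limma adjusted p = 0.258), with 10.19 in the lowest treated mouse against 10.16 in the highest CUG10 mouse.

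The differences of the other 7 genes from CUG10 mice lay between 0.01 for Acta2 and 0.78 for Col3a1. For Acta2 and Tagln the sign turned with the scaling: with median centering the differences were -0.05 and -0.03. Called genes were 0 of the 10 and 0.0% of all tested genes in each direction, and an unadjusted p under 0.05 was found for 3 of the 10 and for 13.4% of all tested genes. Groups without overlap were found for 3 of the 10 genes, all higher, while 13.4% of all tested genes were higher and 12.4% lower without overlap. The median log2 difference was 0.58 over the 10 genes and 0.0 over all tested genes.

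The 10 genes were further described by mouse, since much of their variation lay within groups. In CUG10 mice, replicate 1 was the highest for 9 of the 10 genes, all but Rgs5, while it was the highest CUG10 mouse for 37.2% of all tested genes. It exceeded the mean of the other 2 CUG10 mice by 1 or more on the log2 scale in 5 of the 10 genes, and in 0.249% of all tested genes. The excess was 2.21 for Tagln, 1.81 for Acta2, 1.24 for Dcn, 1.12 for Col3a1 and 1.11 for Col1a2, but 0.23 for Pdgfrb. In vehicle-treated CUG300 mice, replicate 3 was the highest for 8 of the 10 genes and for 30.6% of all tested genes. In CUG300 mice treated with CWG-cPIP, replicate 1 was the lowest for 9 of the 10 genes and for 16.8% of all tested genes. These mice, the directions and the cutoff of 1 were chosen with the values of the 10 genes known, and several of these genes vary together. The shares over all tested genes are therefore a description and not a test.

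**Figure D3:**
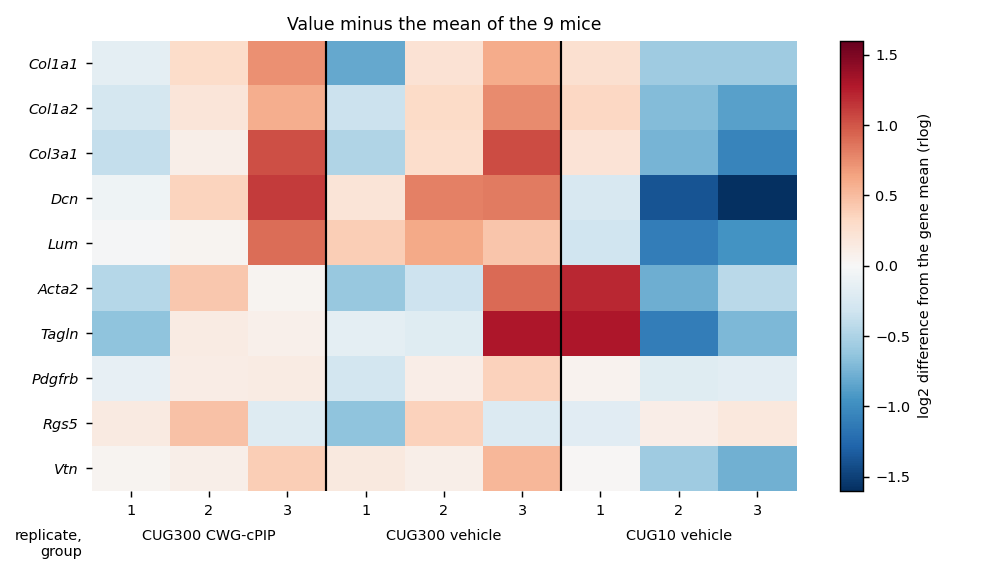
Each value minus the gene's mean over the 9 mice (color, log2 difference on the rlog scale), with genes as rows and mice as columns by group and replicate. CUG10 replicates 2 and 3 are below the mean in 9 of the 10 genes, and Acta2 and Tagln are high in CUG10 replicate 1 and CUG300 vehicle replicate 3.

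To set the proteoglycans against the fibrils they bind, values were expressed relative to the mean of Col1a1, Col1a2 and Col3a1 in the same mouse, a scale chosen after the values had been seen and described without a test. Dcn minus the collagen mean was 1.47, 1.43 and 1.6 in CUG300 mice treated with CWG-cPIP, 2.02, 1.79 and 1.29 in vehicle-treated CUG300 mice, and 0.74, 0.55 and 0.49 in CUG10 mice. On this scale CUG10 replicate 1 stood with the other CUG10 mice, and all 6 CUG300 mice stood above them by at least the gap between 1.29 and 0.74. Groups without overlap and higher than CUG10 were found for Dcn alone among the 7 genes that are not collagens, in both CUG300 groups. Of all other genes tested, 0.141% were higher without overlap in CWG-cPIP-treated mice and 3.1% in vehicle-treated mice on this scale. The shares that were lower were 2.36% and 1.96%. The collagen mean itself was higher than in CUG10 mice, by 0.64 in treated and by 0.58 in vehicle-treated CUG300 mice. Every gene's difference from CUG10 mice was lowered by that much on this scale. The collagen mean also varied within groups, with SDs of 0.53 in treated CUG300, 0.68 in vehicle-treated CUG300 and 0.59 in CUG10 mice. As deposited, 13.4% and 18.2% of all tested genes were higher and 12.4% and 16.7% lower without overlap, in the same order. The shares were thus smaller in both directions on the collagen scale, and the reason was not tested. They do not show how rare the values of Dcn are. Lum minus the collagen mean was -0.33, -0.73 and -0.47 in CUG300 mice treated with CWG-cPIP, 0.36, -0.26 and -0.94 in vehicle-treated CUG300 mice, and -1.18, -1.03 and -0.72 in CUG10 mice. Lum therefore overlapped on this scale, by 1 vehicle-treated mouse and by 0.01 in 1 treated mouse. The means of Vtn relative to the collagens were 2.06 ± 0.35 in treated CUG300, 2.20 ± 0.54 in vehicle-treated CUG300 and 2.09 ± 0.20 in CUG10 mice (SD, n = 3 each), within the spread of the mice.

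Within the contractile pair, Tagln minus Acta2 was -0.31, -0.42 and -0.09 in CUG300 mice treated with CWG-cPIP, 0.33, 0.01 and 0.27 in vehicle-treated CUG300 mice, and -0.02, -0.44 and -0.40 in CUG10 mice. The vehicle-treated CUG300 mice were the highest, by 0.03 over the nearest CUG10 mouse as the values are rounded here, and this difference was not tested.

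**Figure D4:**
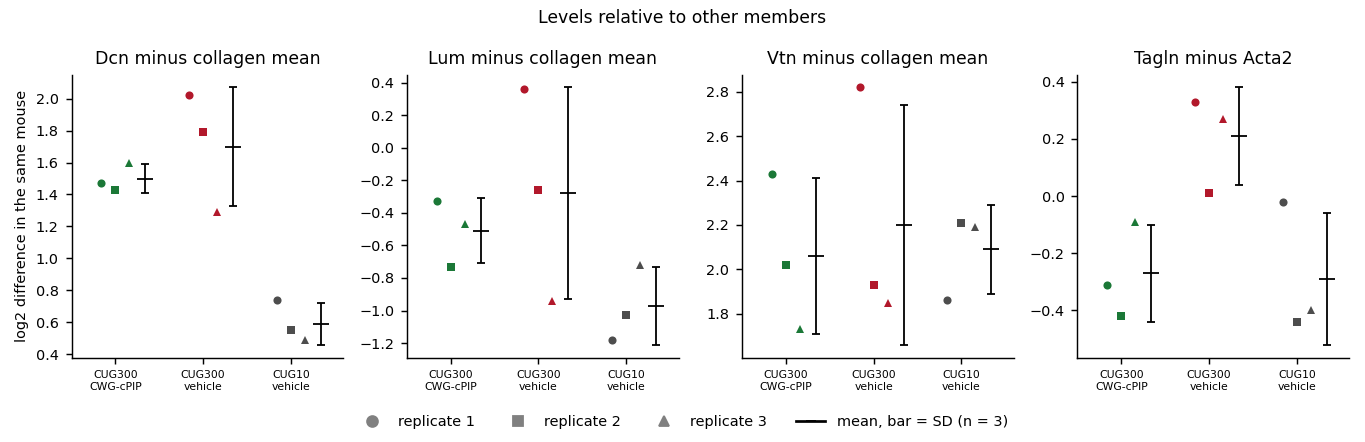
Log2 difference between genes in the same mouse (vertical axis, scaled per panel) by group, with the mean and SD of 3 mice: Dcn, Lum and Vtn minus the collagen mean, and Tagln minus Acta2. Dcn relative to the collagens is 1.29 or more in all CUG300 mice and 0.74 or less in all CUG10 mice.

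The genes whose pattern over the 9 mice was most like that of Dcn, Tagln and Col3a1, the 3 with the largest range, were found by the root mean square difference of values centred on each gene's mean. For Dcn (range 2.73) they were Cyp1b1 (0.222), Aldh1a2 (0.242) and Ifitm1 (0.295). Cyp1b1, a cytochrome P450 of mural and fibroblast-like cells, stood at 7.70, 7.74 and 8.50 in treated CUG300, 7.65, 8.54 and 8.47 in vehicle-treated CUG300, and 7.12, 6.59 and 6.30 in CUG10 mice. Its difference between vehicle-treated CUG300 and CUG10 mice was 1.55 (limma adjusted p = 0.0258). Aldh1a2, which makes retinoic acid and marks meningeal cells, stood at 7.80, 8.15 and 8.67 in treated CUG300, 7.35, 8.58 and 8.64 in vehicle-treated CUG300, and 7.78, 6.42 and 5.97 in CUG10 mice. For Tagln (range 2.40) the nearest were Crispld2 (0.253), the tropomyosin gene Tpm2 (0.263) and Acta2 (0.278), and for Col3a1 (range 2.11) they were Col1a2 (0.207), the proteoglycan gene Bgn (0.287) and Col1a1 (0.296). Tpm2 stood at 6.88, 7.39 and 7.39 in treated CUG300, 6.95, 6.94 and 8.33 in vehicle-treated CUG300, and 8.49, 6.77 and 6.92 in CUG10 mice, so that the same 2 mice were high as for Tagln. These likenesses come from 9 mice that share their groups.

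Related lists were then read from the same fit. All counts of calls refer to vehicle-treated CUG300 against CUG10 mice, since limma called no gene of any list with CWG-cPIP. In that comparison limma called 7.37% of all tested genes higher and 3.34% lower, and 30.5% had an unadjusted p under 0.05. The counts of every list below are to be read beside these shares. Against vehicle, 0 to 2 genes of each related list had an unadjusted p under 0.05 with CWG-cPIP, as did 8.82% of all tested genes. Contractile smooth muscle genes had 10 tested of 12, with Myocd and Actg2 under the filter, and none was called by limma (1 with an unadjusted p under 0.05, median difference -0.02). Myh11, the smooth muscle myosin, stood at 6.33, 7.38 and 8.24 in vehicle-treated CUG300 mice, against 8.57, 6.60 and 7.06 in CUG10 mice, and Cnn1, which encodes calponin, at 3.87, 3.81 and 4.89 against 4.97, 3.78 and 3.91. Both were high in the 2 mice in which Acta2 and Tagln were high. In treated CUG300 mice Myh11 stood at 7.16, 8.19 and 7.08, so that replicate 2 came close to vehicle-treated CUG300 replicate 3. Cnn1 stood at 3.74, 4.10 and 4.01 in treated CUG300 mice. Of 12 pericyte genes none was called by limma (3 with an unadjusted p under 0.05, median difference 0.18). The differences of these 3 lay on both sides of 0. Anpep, the aminopeptidase N gene, stood at 7.17, 7.72 and 8.50 in vehicle-treated CUG300 mice, against 6.50, 6.52 and 6.36 in CUG10 mice (difference 1.34, limma adjusted p = 0.0842). Cspg4, the NG2 proteoglycan gene, which oligodendrocyte precursors also express, stood at 6.87, 7.53 and 7.13 in vehicle-treated CUG300 mice, against 7.89, 7.93 and 7.84 in CUG10 mice (difference -0.71, limma adjusted p = 0.0849). Neither overlapped between the groups, and Art3 differed by 0.47 (limma adjusted p = 0.0992). For the first genes of the list, the differences were 0.37 for the channel gene Kcnj8 (95% interval -0.05 to 0.78) and 0.18 for its partner Abcc9 (95% interval -0.17 to 0.52).

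In the fibroblast and fibrillar matrix list 0 of 14 genes were called higher and 2 lower, with a median difference of 0.20. Col5a1, a chain of collagen V that starts fibrils, stood at 6.71, 6.55 and 7.10 in vehicle-treated CUG300 mice, against 7.70, 7.41 and 7.83 in CUG10 mice. It was lower by group without overlap (difference -0.86, SE 0.18, limma adjusted p = 0.0273). Col6a1, a chain of the microfibril collagen VI, stood at 6.83, 7.04 and 7.70 in vehicle-treated CUG300 mice, against 7.92, 7.98 and 8.25 in CUG10 mice (difference -0.86, SE 0.21, limma adjusted p = 0.0385). These genes were thus lower where Dcn and Lum were higher, and the CUG300 mice treated with CWG-cPIP had 6.40, 6.76 and 6.77 for Col5a1 and 6.78, 6.98 and 6.87 for Col6a1, also below every CUG10 mouse (limma adjusted p = 0.119 for each). Col5a2, the partner chain of Col5a1, had a difference of 0.46 (95% interval -0.15 to 1.06).

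Among the other small leucine-rich proteoglycans 1 of 8 was called, Ecm2, a relative of decorin (median difference 0.18). It stood at 6.84, 6.97 and 6.95 in vehicle-treated CUG300 mice, against 6.46, 6.39 and 6.15 in CUG10 mice (difference 0.59, SE 0.14, limma adjusted p = 0.0328). Bgn, biglycan, the closest relative of decorin, stood at 8.28, 8.92 and 9.40 in vehicle-treated CUG300 mice, against 8.69, 8.0 and 7.92 in CUG10 mice, with a difference of 0.67 (95% interval -0.01 to 1.35). Fmod, fibromodulin, differed by 0.22 (95% interval -1.40 to 1.84), with 8.63 in vehicle-treated CUG300 replicate 3 and 8.28 in CUG10 replicate 1 as its highest mice. Fmod thus peaked in the same mice as the contractile genes.

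Genes that process collagen had 4 of 14 called higher and none lower (median difference 0.35). The largest were Plod3, a lysyl hydroxylase (difference 0.96, SE 0.23), Serpinh1, the collagen chaperone HSP47 (0.83, SE 0.18), and Pcolce, an enhancer of procollagen cleavage (0.79, SE 0.15), with limma adjusted p-values of 0.0344, 0.0299 and 0.0239. P4ha1, a prolyl hydroxylase, was the fourth (difference 0.60, SE 0.16, limma adjusted p = 0.0481), while P4ha2 differed by -0.11 (95% interval -0.38 to 0.16). Serpinh1 stood at 9.08, 8.90 and 9.63 in treated CUG300, 9.52, 9.44 and 9.80 in vehicle-treated CUG300, and 8.70, 8.83 and 8.75 in CUG10 mice. Unlike the collagens, it varied little among the CUG10 mice.

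Matrix turnover genes had 4 of 11 called higher and none lower, with Mmp12 under the filter (median difference 0.31). Timp1, an inhibitor of metalloproteinases, stood at 7.34, 5.59 and 8.95 in treated CUG300, 8.76, 7.85 and 9.08 in vehicle-treated CUG300, and 5.51, 6.02 and 5.64 in CUG10 mice. Its difference between vehicle-treated CUG300 and CUG10 mice was 2.84 (SE 0.71, limma adjusted p = 0.0389). CWG-cPIP replicate 2 was at the CUG10 level for Timp1, while the same mouse had 9.65 for Dcn, above every CUG10 mouse. The metalloproteinase genes Mmp3 and Mmp14 differed by 1.67 (SE 0.40, limma adjusted p = 0.0344) and by 1.6 (SE 0.36, limma adjusted p = 0.0311). The gelatinase genes Mmp2 and Mmp9 differed by 0.10 (95% interval -0.34 to 0.54) and -0.01 (95% interval -0.23 to 0.20).

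In the TGF-beta pathway, which drives matrix genes in fibroblasts, 5 of 14 genes were called higher and none lower (median difference 0.26). Tgfbi, a matrix protein induced by TGF-beta and also made by macrophages, stood at 9.70, 8.33 and 11.44 in treated CUG300, 10.61, 11.03 and 11.67 in vehicle-treated CUG300, and 7.48, 7.90 and 8.02 in CUG10 mice. Its difference between vehicle-treated CUG300 and CUG10 mice was 3.30 (SE 0.65, limma adjusted p = 0.0246). Tgfb1, the ligand, differed by 1.18 (SE 0.30, limma adjusted p = 0.0416) and Ltbp1, which stores it in the matrix, by 0.90 (SE 0.23, limma adjusted p = 0.0416). The receptor genes Tgfbr2 and Eng made up the rest, at 0.75 each, and Tgfb2 differed by -0.11 (95% interval -0.53 to 0.31). Ctgf, a matricellular target of TGF-beta also known as Ccn2, lay the other way, with 7.47, 7.95 and 8.03 in treated CUG300, 9.01, 7.75 and 9.84 in vehicle-treated CUG300, and 9.94, 9.27 and 9.41 in CUG10 mice. Its difference was -0.67 in vehicle-treated CUG300 against CUG10 mice (limma adjusted p = 0.339) and -1.72 in treated CUG300 against CUG10 mice, without overlap (limma adjusted p = 0.184). Of 12 basement membrane genes and of 5 PDGF ligand and receptor genes none was called by limma, with median differences of 0.17 and -0.03. An unadjusted p under 0.05 in limma was found for 3 and 1 of them, against 30.5% of all tested genes. Col4a1 and Col4a2, the chains of collagen IV, differed by 0.68 (95% interval 0.04 to 1.32) and 0.28 (95% interval -0.28 to 0.84), and the ligand genes Pdgfb and Pdgfa by 0.03 each.

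Markers of other cells moved with some of these values. The mean of 10 arachnoid and dural border genes was 6.02, 6.44 and 6.36 in treated CUG300, 6.02, 6.64 and 7.01 in vehicle-treated CUG300, and 6.50, 5.75 and 5.58 in CUG10 mice. As with the collagens, CUG10 replicate 1 stood above the other CUG10 mice, but among treated mice replicate 2 was highest for the border genes and replicate 3 for the collagens. In this list limma called none of these 10 genes (median difference between vehicle-treated CUG300 and CUG10 mice 0.58). An unadjusted p under 0.05 in limma was found for 3 of them, against 30.5% of all tested genes. The part of meningeal tissue in the values of Dcn, Lum and the collagens was not tested. The mean of 10 macrophage and monocyte genes was 6.72, 6.15 and 7.55 in treated CUG300, 7.22, 7.33 and 7.74 in vehicle-treated CUG300, and 5.66, 5.79 and 5.34 in CUG10 mice, with 5 of 10 called higher in vehicle-treated CUG300 mice. The largest were Ly6c2 (difference 4.52), Plac8 (4.38) and Ccr2 (2.82), with limma adjusted p-values of 0.0213, 0.0222 and 0.0207. Ly6c2 has a near-identical neighbour, so its reads may be shared. The part of these cells in the matrix turnover and TGF-beta genes was not tested.

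Endothelial genes had 1 of 10 called, Emcn (difference 0.60, SE 0.14, limma adjusted p = 0.0343). Of these 10, 5 had an unadjusted p under 0.05 in limma, where 30.5% of all tested genes had one. There were 7 positive and 3 negative differences, and the median was 0.30. Their mean was 8.34, 8.47 and 8.61 in treated CUG300, 8.29, 8.49 and 8.64 in vehicle-treated CUG300, and 8.26, 8.24 and 8.17 in CUG10 mice. Both CUG300 groups were thus above every CUG10 mouse. Choroid plexus genes are given beside the collagens, and the part of choroid plexus tissue in the values of the 10 genes was not tested. In CUG300 mice treated with CWG-cPIP all 12 were lower on average than in vehicle-treated CUG300 mice and none was called by limma (11 with an unadjusted p under 0.05), while the collagens differed by 0.29 or less between these groups, and CUG10 replicate 1 was the lowest CUG10 mouse for the choroid plexus mean and the highest for the collagens. Ttr, the transthyretin gene, stood at 10.26, 9.51 and 10.22 in treated CUG300, 15.89, 13.88 and 14.74 in vehicle-treated CUG300, and 9.78, 13.20 and 14.74 in CUG10 mice. Among 10 hippocampal neuron genes 1 was called, Fibcd1 of CA1, lower in vehicle-treated CUG300 mice (difference -0.80, SE 0.15, limma adjusted p = 0.0241). The median difference of that list was -0.06, with 2 differences positive and 8 negative. In no comparison did limma call any of 9 diencephalon neuron genes. Of these 9, 6 had an unadjusted p under 0.05 with CWG-cPIP against vehicle (median difference 0.65), 6 with CWG-cPIP against CUG10 mice (median 0.86) and 3 in vehicle-treated CUG300 against CUG10 mice (median 0.12). The shares of all tested genes with an unadjusted p under 0.05 in limma were 8.82%, 13.4% and 30.5% in that order. Tcf7l2, a transcription factor of thalamic neurons, stood at 9.39, 9.43 and 8.95 in treated CUG300, 8.10, 8.46 and 6.91 in vehicle-treated CUG300, and 7.16, 7.03 and 6.51 in CUG10 mice. The treated mice were thus above all others.

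**Figure D5:**
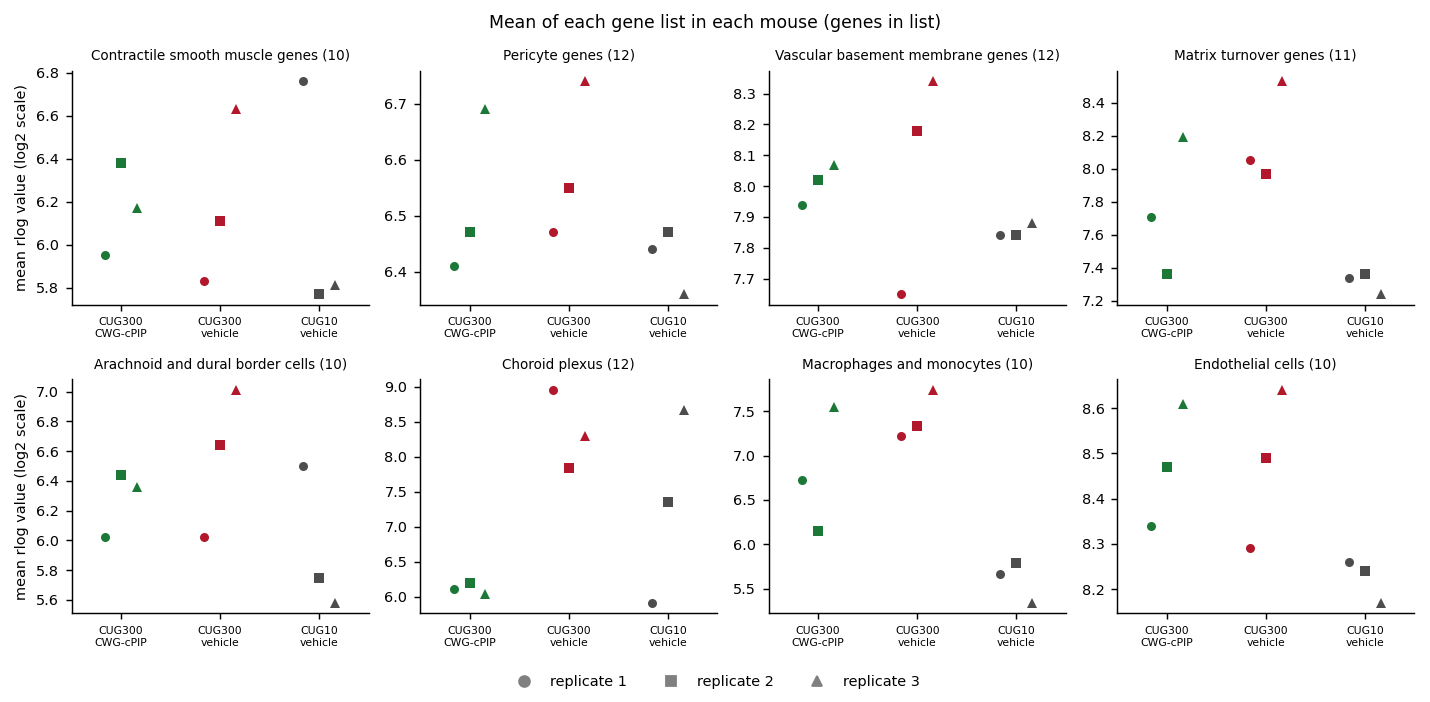
Mean rlog value of each gene list (vertical axis, log2 scale, scaled per panel) in each mouse by group, with the number of genes in parentheses. Smooth muscle genes peak in CUG10 replicate 1 (6.76) and CUG300 vehicle replicate 3 (6.63), border cell genes are lowest in CUG10 replicates 2 and 3 (5.75 and 5.58), and choroid plexus genes are low in all CWG-cPIP mice and in CUG10 replicate 1.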

How the data were processed

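Hippocampal RNA of 9 mice was sequenced, 1 library per mouse. The authors used Trim Galore 0.6.6 for trimming, STAR 2.7.9a for alignment to GRCm38/mm10 and RSEM 1.3.3 for gene quantification, and deposited log2-scale rlog values computed in DESeq2 1.36.0. The library kit was directional (NEBNext Ultra II Directional). The annotation, the use of strand in quantification and the depth are not given in the sources used here. These values are not counts, and no count model was used. Genes whose mean reached log2(10) were fitted with limma 3.58.1 in R 4.3.3, with 1 mean per group, a variance trend, 3.03 prior degrees of freedom and Benjamini-Hochberg adjustment over 14867 genes within each comparison. The procedure was tested on simulated data in which every value was drawn independently. Variation that a mouse shares across genes was not part of that test. P-values set the difference between groups against the spread between mice within groups, as pooled over the groups and moderated by limma.

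Named genes were the 10 genes, the first 2 measured of each related list, up to 3 called genes per list with the largest differences, markers that were called or stand beside a result, and the nearest patterns. Mmp14, Tgfbr2, Eng, Anpep, Cspg4, Art3, Ctgf and Tcf7l2, and the genes under the filter, fall outside this rule and were picked with their values known. A result that the rule would name is not reported here. The 10 genes and the lists were chosen with earlier results of these data known. Ccn2 was measured under its older symbol Ctgf, and Leprel1 was not matched to a row. Alternatives tried were quantile scaling, median centering, a filter at log2(100) or none, limma without trend or robust, a fit of only the 2 groups compared, a replicate block, an adjusted p under 0.01, and leaving out each mouse.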

Additional observations from a re-analysis of the deposited data

How the results depend on the processing

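Of the 10 genes, 2 were called between vehicle-treated CUG300 and CUG10 mice, 0 at an adjusted p under 0.01 and between 0 and 3 when a mouse was left out (the third was Vtn). Over all genes 1592 were called, 0 at an adjusted p under 0.01 and between 0 and 2490 when a mouse was left out. With the replicate number as a block 1 of the 10 genes was called, Lum, with limma adjusted p = 0.0533 for Dcn, and 1512 of all genes. Correlations between same-numbered mice of different groups lay between -0.499 and 0.413, and those between differently numbered mice between -0.524 and 0.461. With 3 mice a group, these values do not settle whether the numbers pair the mice. With only the 2 groups in the fit, CWG-cPIP against vehicle called 3 genes (0 to 3 when a mouse was left out) and CWG-cPIP against CUG10 mice called 14 (0 to 567), against 0 in each from all groups. None was among the 10. Relative to the collagen mean, a scale chosen after seeing the data, 1 of the genes had groups without overlap against CUG10 mice, in place of 3.

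Small differences turned sign. With quantile scaling Pdgfrb differed by 0.00418 between CWG-cPIP and vehicle. Against CUG10 mice, CWG-cPIP-treated mice differed by -0.047 in Acta2 and -0.032 in Tagln with median centering, and by -0.049 and -0.033 with quantile scaling. Leaving out a mouse gave, for vehicle-treated CUG300 against CUG10 mice, -0.461 to 0.5995 for Acta2, -0.460 to 0.051 for Rgs5 and -0.0028 to 0.703 for Col1a1. For CWG-cPIP against vehicle it gave -0.124 to 0.582 for Col1a1, -0.367 to 0.180 for Col1a2, -0.429 to 0.348 for Col3a1, -0.469 to 0.125 for Dcn, -0.202 to 0.133 for Pdgfrb, -0.280 to 0.473 for Acta2, -0.721 to 0.027 for Tagln and -0.191 to 0.054 for Vtn. For CWG-cPIP against CUG10 mice it gave -0.375 to 0.616 for Acta2, -0.435 to 0.763 for Tagln and -0.054 to 0.286 for Rgs5. The cause of the changes with scaling was not tested, and changes without a mouse follow from its value. With 3 mice a group and unknown depth, weak expression limits small differences most.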
